A study of Mus musculus with 6 samples.

Results

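Bhlhe40 and the genes of the circadian clock were followed in splenic Tregs after induced loss of Zfp335, a zinc finger transcription factor. The 10 genes were Bhlhe40, Arntl, Clock, Per1, Per2, Cry1, Cry2, Nr1d1, Nr1d2 and Dbp, taken by symbol from a table of 32285 gene rows, and all 10 were among the 17307 genes that passed the filter on low counts. They were picked with this comparison already known, so their own differences are given as a description, and calls counted over them are not read as evidence. Bulk RNA-seq was available for 6 libraries of C57BL/6 mice, 3 labelled WT and 3 labelled KO. The KO cells came from ERCre Zfp335 fl/fl mice, in which Cre recombinase fused to a modified estrogen receptor is switched on by tamoxifen. The labels call the control animals wild-type littermates, whereas the methods of the study compare ERCre Zfp335 fl/fl mice with ERCre mice and treat both with tamoxifen. In those methods, 6-week-old mice were injected with tamoxifen on days 1, 3 and 5 and were sacrificed on day 7. No promoter that limits this Cre to Tregs is named, so Zfp335 may have been deleted in other cells of the same mice as well. The hour of collection, on which clock transcripts depend, is not given in the sources used here, and nothing says whether the 3 libraries of a group came from separate animals.

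The circadian clock is a feedback loop of transcription that runs in nearly every cell. CLOCK and BMAL1, the product of Arntl, bind E-boxes as a dimer and switch on the Per, Cry, Nr1d and Dbp genes. PER and CRY proteins then inhibit that dimer, while the nuclear receptors encoded by Nr1d1 and Nr1d2, known as REV-ERB alpha and beta, repress Arntl, and DBP carries the rhythm to genes with D-boxes. Bhlhe40, also called Dec1, encodes a repressor that competes for E-boxes. In T cells it is induced by antigen receptor signals and is known for repressing Il10 and for supporting cytokine production by helper cells.

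Zfp335 itself was lower in every KO library. CPM, the counts of a gene relative to the TMM-scaled size of its library, were 124, 121 and 115 for Zfp335 in the WT libraries and 15.0, 14.3 and 15.1 in the KO libraries, and the log2 fold change was -3.02 with a standard error of 0.046 (adjusted p = 1.2e-13 by edgeR's quasi-likelihood test). The libraries held between 133283969 and 209041812 counts, and each of the 10 genes had between 2177 and 110432 counts in every library. Foxp3, which defines Tregs, was 1136 ± 17.4 CPM in WT and 1052 ± 9.24 in KO (SD, n = 3). Xist, which is transcribed from the inactive X chromosome, was 0.272 ± 0.132 CPM in WT and 135 ± 10.4 in KO (SD, n = 3), and the labels give no sex. If the groups differed in sex, that difference cannot be told apart from the loss of Zfp335 in any value below. Markers of other blood cells differed between the groups too. The summed level of 5 B cell markers was 45.4 to 49.5 CPM in WT and 21.1 to 23.0 CPM in KO, and all 5 passed the test as lower (edgeR adjusted p under 0.05). The sum of 7 myeloid markers was 51.5 to 58.6 CPM in WT and 27.1 to 29.3 CPM in KO, with 5 of the 7 lower and 2 not called. Of the 2 not called, 1 was above WT in every KO library. For 5 red cell markers the sum was 36.5 to 43.4 CPM in WT and 1.81 to 2.31 CPM in KO, with all 5 lower (4 without WT replicate 2). The sum of 5 CD8 T and NK cell markers was 15.4 to 16.5 CPM in WT and 14.6 to 16.0 CPM in KO, with 1 lower (2 without KO replicate 2). Over all genes tested, 12.1% were called lower. None of these markers was at 0 in a whole group. Their part in the values of the clock genes was not tested, and in bulk RNA fewer cells of a type cannot be told apart from less RNA per cell.

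Some of the clock genes carry E-boxes at their start sites, and these are shown to place the later values beside the sequence through which BHLHE40 and the CLOCK dimer act. The promoter windows are RefSeq sequences of build GRCm38.p6 that run from 250 bases before to 50 bases after an annotated start, written from 5′ to 3′ on the strand of the gene, and the capitals mark E-boxes (CACGTG) and the related E′-box (CACGTT, or AACGTG on the other strand). Per1 had 2 windows. In the one printed here (chr11:69098699-69098998, plus strand) the E-box began 166 bases before the start, and the other (chr11:69099902-69100201) held neither box. The Cry1 window (chr10:85185005-85185304, minus strand) held an E′-box 79 bases and an E-box 60 bases before the start. In Cry2 (chr2:92434020-92434319, minus strand) an E′-box began 166 bases before the start, and in Nr1d1 (chr11:98775328-98775627, minus strand) one began 28 bases before it. Ciart (chr3:95882179-95882478, minus strand), which encodes a further repressor of the CLOCK dimer and is not among the 10 genes, held 3 E-boxes, 116, 58 and 44 bases before its start.
Per1: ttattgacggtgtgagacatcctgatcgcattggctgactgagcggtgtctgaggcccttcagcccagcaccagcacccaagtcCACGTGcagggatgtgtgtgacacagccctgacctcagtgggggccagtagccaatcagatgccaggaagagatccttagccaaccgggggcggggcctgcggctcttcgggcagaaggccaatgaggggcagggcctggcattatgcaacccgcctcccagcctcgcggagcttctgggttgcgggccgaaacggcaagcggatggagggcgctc
Cry1: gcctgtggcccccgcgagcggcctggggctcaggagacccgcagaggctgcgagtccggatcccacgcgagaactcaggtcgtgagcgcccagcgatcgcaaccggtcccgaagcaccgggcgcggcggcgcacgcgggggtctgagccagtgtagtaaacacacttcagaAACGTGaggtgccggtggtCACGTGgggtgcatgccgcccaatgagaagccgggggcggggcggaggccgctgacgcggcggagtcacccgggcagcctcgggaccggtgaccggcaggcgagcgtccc
Cry2: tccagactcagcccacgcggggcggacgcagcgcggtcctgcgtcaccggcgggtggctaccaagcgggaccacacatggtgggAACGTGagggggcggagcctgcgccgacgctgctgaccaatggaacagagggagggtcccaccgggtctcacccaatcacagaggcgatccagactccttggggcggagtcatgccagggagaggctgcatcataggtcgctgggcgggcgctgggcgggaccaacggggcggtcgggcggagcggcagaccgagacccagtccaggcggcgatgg
Nr1d1: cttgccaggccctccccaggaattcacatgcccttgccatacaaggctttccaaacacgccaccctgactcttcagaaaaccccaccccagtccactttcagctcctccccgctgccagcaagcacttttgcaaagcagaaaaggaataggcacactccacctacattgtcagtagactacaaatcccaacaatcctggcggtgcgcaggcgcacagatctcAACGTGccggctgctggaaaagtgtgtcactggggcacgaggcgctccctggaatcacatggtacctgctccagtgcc
Ciart: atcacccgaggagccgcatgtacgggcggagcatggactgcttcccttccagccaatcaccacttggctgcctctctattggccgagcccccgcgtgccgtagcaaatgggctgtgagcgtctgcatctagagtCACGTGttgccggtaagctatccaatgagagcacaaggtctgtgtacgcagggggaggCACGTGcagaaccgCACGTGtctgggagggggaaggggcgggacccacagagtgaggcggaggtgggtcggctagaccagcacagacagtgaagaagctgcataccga

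Both strands were searched, and no marked match overlapped another. RefSeq windows were at hand for 8 of the 10 genes, Bhlhe40 and Per2 being the exceptions, and 2 of the 8 held CACGTG, which 8.09% of 27025 genes did. CACGTT was found in 3 of the 8 and in 5.44% of all genes. The element TAGGTCA, which reads as TGACCTA on the other strand and is bound by ROR and REV-ERB receptors, lay 30 bases past a start of Arntl and in no window of the other 7 genes, and 2.97% of all genes held it. The D-box TTATGTAA (TTACATAA on the other strand) was in none of the 8 windows and in 1.11% of all genes, and the cAMP response element TGACGTCA was in none and in 2.03%. The windows of Clock, Nr1d2 and Dbp held none of these letters. Among 16 other clock genes with a window, 4 held CACGTG, namely Bhlhe41, Ciart, Cipc and Tef. A match in so short a window is a run of letters and not a mapped site, and sites farther away were not searched.

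Of the 10 genes, Bhlhe40 and Per1 differed most, both being more than 2-fold higher in KO Tregs. Nr1d2 and Cry2 were higher by about 36.4% and 34.7%. Per2 and Arntl were slightly higher, Cry1, Dbp and Nr1d1 were slightly lower, and Clock showed nearly equal means. By the adjusted p threshold of 0.05, 6 of the 10 were called higher and 1 lower, where 12.0% of all genes tested were called higher and 12.1% lower. By the cutoffs the study used for another of its bulk RNA-seq experiments (a fold of 1.5 or more, with P under 0.05 and an adjusted P under 0.1), 2 of the 10 were higher and 0 lower, and over all genes the shares were 2.58% and 4.37%. All 3 KO libraries lay above all 3 WT libraries for 6 of the 10, a pattern seen in 19.3% of all genes, and below them for 3 of the 10, a pattern seen in 19.1%. The median log2 fold change was 0.15 over the 10 genes and -0.0042 over all genes tested. Because these counts come from the contrast with which the genes were picked, nothing further is read from them.

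Bhlhe40 lies on the plus strand of chromosome 6 (chr6:108660629-108666925, GRCm38). Its levels were 205, 205 and 213 CPM in the WT libraries and 508, 511 and 508 CPM in the KO libraries. Both groups were tight, and the lowest KO library stood far above the highest WT library. The means were 208 ± 4.98 CPM and 509 ± 1.65 CPM (SD, n = 3), a 2.45-fold difference at a log2 fold change of 1.29 (standard error 0.032). Ordered from the highest log2 fold change, Bhlhe40 was at position 255 of 17307 genes. Its antisense neighbour 0610040F04Rik shares 118 exonic bases with it, 2.51% of the exons of Bhlhe40, and had at most 15 counts in a library.

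**Figure D1:**
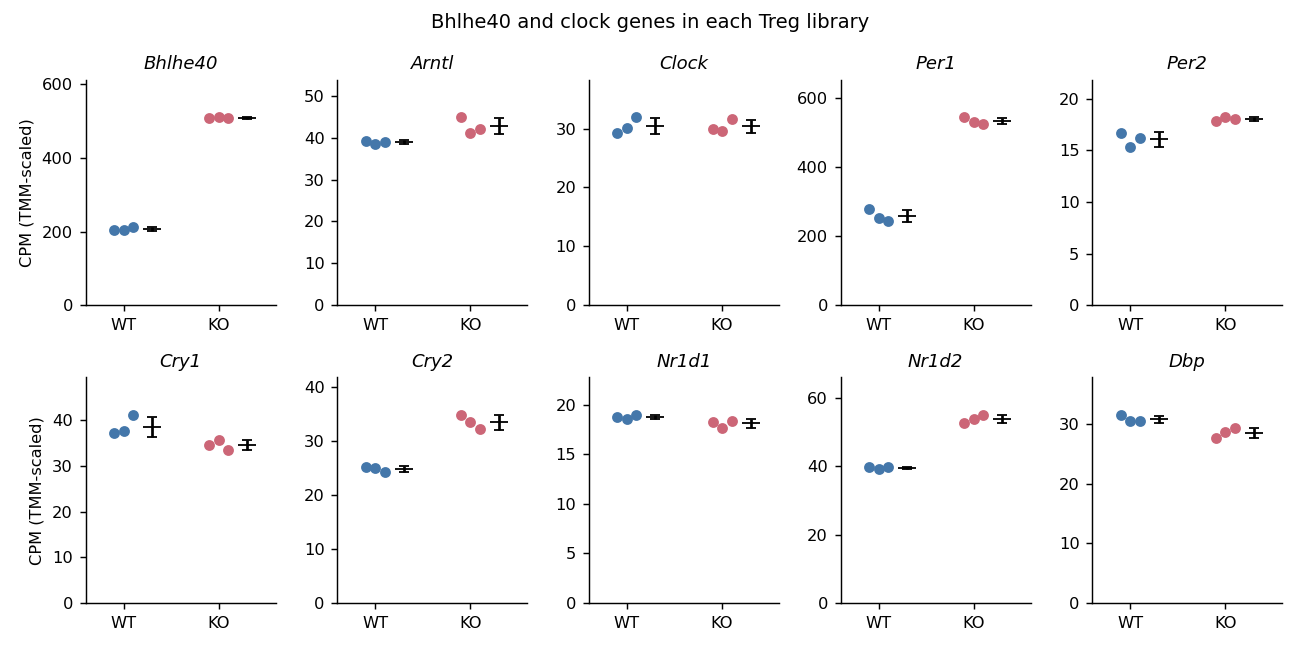
Level of each of the 10 genes in CPM (linear axis from 0, scaled by TMM) in 3 WT and 3 KO libraries, 1 point per library, with the mean and SD (n = 3) beside the points. Bhlhe40 and Per1 show the widest gap between groups, with means of 208 and 509 CPM and of 259 and 535 CPM, whereas the points of Clock overlap.

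Arntl and Clock, the activators of the loop among the 10 genes, differed little. For Arntl (chr7:113207465-113314126, plus strand), the WT libraries were at 39.3, 38.5 and 39.1 CPM and the KO libraries at 44.9, 41.2 and 42.1 CPM. The groups did not overlap, but KO replicate 1 stood above the other two. The log2 fold change was 0.13 (standard error 0.044), from 39.0 ± 0.420 to 42.7 ± 1.92 CPM (SD, n = 3). Gm45355, an antisense gene, shares 0.439% of the exonic bases of Arntl and had at most 13 counts in a library. Clock (chr5:76209868-76304792, minus strand) was at 29.2, 30.0 and 31.9 CPM in WT and at 30.0, 29.5 and 31.6 CPM in KO. These ranges overlapped almost fully, at a log2 fold change of 0.0027 (standard error 0.050) and a mean of 30.4 CPM in both groups. Npas2, which encodes an alternative partner of BMAL1 and is not among the 10 genes, rose from 3.57, 2.92 and 3.66 CPM in WT to 6.49, 7.18 and 6.76 CPM in KO (log2 fold change 1.02, edgeR adjusted p = 7.92e-06). Arntl2, a second BMAL gene, was near the limit of detection at 0.148 ± 0.0208 and 0.184 ± 0.0315 CPM (SD, n = 3) and was not called (edgeR adjusted p = 0.687).

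Among the period genes, whose products inhibit the CLOCK dimer, Per1 and Per2 differed in unequal measure. Per1 (chr11:69095217-69109960, plus strand) was at 278, 254 and 245 CPM in the WT libraries and at 545, 532 and 527 CPM in the KO libraries. The groups were widely apart, and the WT libraries spread more than the KO libraries. The means of 259 ± 17.3 and 535 ± 9.31 CPM (SD, n = 3) gave a log2 fold change of 1.05 (standard error 0.043), or 2.06-fold, at position 384 of 17307 from the highest. Per2 (chr1:91415982-91459324, minus strand) was at 16.7, 15.3 and 16.2 CPM in WT and at 17.8, 18.2 and 18.0 CPM in KO. The groups did not overlap, but the gap between them was narrower than the range within WT, and the log2 fold change was 0.17 (standard error 0.055). Per3 was at 3.70 ± 0.611 CPM in WT and 3.81 ± 0.255 in KO (SD, n = 3), with overlapping libraries and no call (edgeR adjusted p = 0.852).

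The cryptochromes, which bind PER proteins and carry most of the inhibition of the CLOCK dimer, differed in opposite directions. Cry1 (chr10:85131700-85185064, minus strand) was at 37.2, 37.6 and 41.1 CPM in WT and at 34.5, 35.7 and 33.4 CPM in KO. The highest KO library was below the lowest WT library, and WT replicate 3 set much of the WT spread. Its log2 fold change was -0.16 (standard error 0.050). Cry2 (chr2:92403646-92434043, minus strand) was at 25.2, 24.9 and 24.2 CPM in WT and at 34.8, 33.4 and 32.1 CPM in KO. Here the groups were well separated, at a log2 fold change of 0.43 (standard error 0.048). A transcript on the other strand, D930015M05Rik, shares 4.67% of the exonic bases of Cry2 but was at 0.241 ± 0.0540 and 0.355 ± 0.144 CPM (SD, n = 3) and was not called (edgeR adjusted p = 0.328).

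The REV-ERB genes differed from each other as well. Nr1d1 (chr11:98767932-98775333, minus strand) was at 18.8, 18.5 and 18.9 CPM in WT and at 18.3, 17.6 and 18.4 CPM in KO. All KO libraries were below the WT libraries by a narrow margin, and the log2 fold change of -0.051 was no larger than its standard error of 0.051. Nr1d2 (chr14:18204054-18239127, minus strand) was at 39.7, 39.1 and 39.7 CPM in WT and at 52.8, 53.8 and 55.0 CPM in KO. Every KO library was clearly above WT, at a log2 fold change of 0.45 (standard error 0.039). Nr1d1 shares 8.55% of its exonic bases with Thra on the other strand, and Thra was at 26.3 ± 1.69 CPM in WT and 25.3 ± 0.833 in KO (SD, n = 3, edgeR adjusted p = 0.591). Of Nr1d2, 5.13% of 50-base stretches also occur in transcripts of another gene. How reads from such stretches were counted is not stated in the sources used here.

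Dbp (chr7:45705088-45710203, plus strand) encodes the PAR bZIP activator at the output of the clock. Its levels were 31.5, 30.5 and 30.5 CPM in the WT libraries and 27.6, 28.7 and 29.3 CPM in the KO libraries. The KO libraries were below WT without overlap, at a log2 fold change of -0.11 (standard error 0.045). Dbp shares 18.0% of its exonic bases with Sphk2 on the other strand, which was more abundant, at 71.0 ± 7.62 CPM in WT and 65.3 ± 2.04 in KO (SD, n = 3, edgeR adjusted p = 0.215). Whether the counting used strand is not stated in the sources used here, so reads from the shared exons of Dbp, and likewise those of Nr1d1, Cry2 and Bhlhe40, cannot be assigned with certainty.

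Summed over the 10 genes, the level was 693 to 720.4 CPM in WT and 1294 to 1313 CPM in KO, most of it from Bhlhe40 and Per1. The spread among libraries of a group was small for each gene, with coefficients of variation from 0.880% to 6.69% in WT and from 0.324% to 4.50% in KO.

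Levels of different genes were compared per exon length, as TPM-type values in which CPM are divided by the exonic length of the gene in GENCODE M21 and scaled to the same total in each library. In WT, Per1 was the highest of the 10 at 159 ± 12.3 and Bhlhe40 followed at 153 ± 1.67, and these overlapped between libraries (SD, n = 3). Cry1 came next at 40.0 ± 1.74, followed by Dbp at 35.7 ± 1.05, Nr1d2 at 25.3 ± 0.312, Nr1d1 at 21.1 ± 0.185 and Arntl at 17.9 ± 0.277. Cry2 at 13.6 ± 0.437, Per2 at 9.49 ± 0.437 and Clock at 7.66 ± 0.248 were the lowest, and from Bhlhe40 downward no neighbours in this order overlapped. In KO the first places were exchanged, with Bhlhe40 at 370.3 ± 3.15 above Per1 at 325 ± 3.86 in every library. Nr1d2, at 34.1 ± 0.895, passed Dbp, at 32.7 ± 1.15, and came close to Cry1, at 35.4 ± 1.23, but the libraries of Nr1d2 overlapped those of both. Nr1d1 at 20.1 ± 0.439 and Arntl at 19.4 ± 0.755 overlapped too, and Cry2 at 18.1 ± 0.634, Per2 at 10.5 ± 0.180 and Clock at 7.58 ± 0.294 again closed the order.

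**Figure D2:**
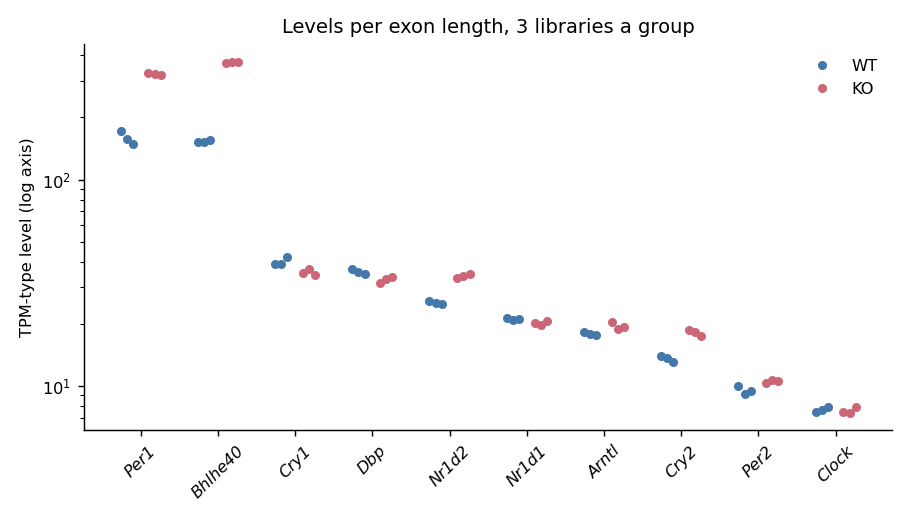
TPM-type level of the 10 genes on a log axis, ordered by their WT mean, with 1 point for each of 3 WT and 3 KO libraries. Per1 and Bhlhe40 lie well above the other genes in every library, and Bhlhe40 is above Per1 in KO.

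Ratios between related genes were then taken within each library, which removes any scaling between libraries. The ratio of Per1 to Per2, on the same per-length scale, was 16.8 in WT and 30.9 in KO, and its log2 value was 4.12, 4.11 and 3.98 in the WT libraries and 4.99, 4.93 and 4.92 in the KO libraries. For Cry2 over Cry1 the log2 ratio was -1.48, -1.52 and -1.68 in WT and -0.91, -1.02 and -0.98 in KO, so that Cry2 stayed below Cry1 but came closer to it. For Nr1d2 over Nr1d1 it was 0.27, 0.26 and 0.25 in WT and 0.71, 0.80 and 0.77 in KO. In each of these pairs the KO libraries were apart from the WT libraries. The log2 ratio of Npas2 to Clock was -1.65 ± 0.17 in WT and -0.64 ± 0.10 in KO (SD, n = 3). Nfil3 encodes the repressor that competes with DBP for D-boxes, and its log2 ratio to Dbp was 1.51 ± 0.050 in WT and 2.47 ± 0.026 in KO (SD, n = 3). Bhlhe40 over its paralog Bhlhe41 was the exception, with overlapping log2 ratios of 7.74 ± 0.54 and 7.80 ± 0.13 (SD, n = 3). Whether a pair separates the groups follows from the differences of its single genes, so these ratios are a description and not further evidence.

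**Figure D3:**
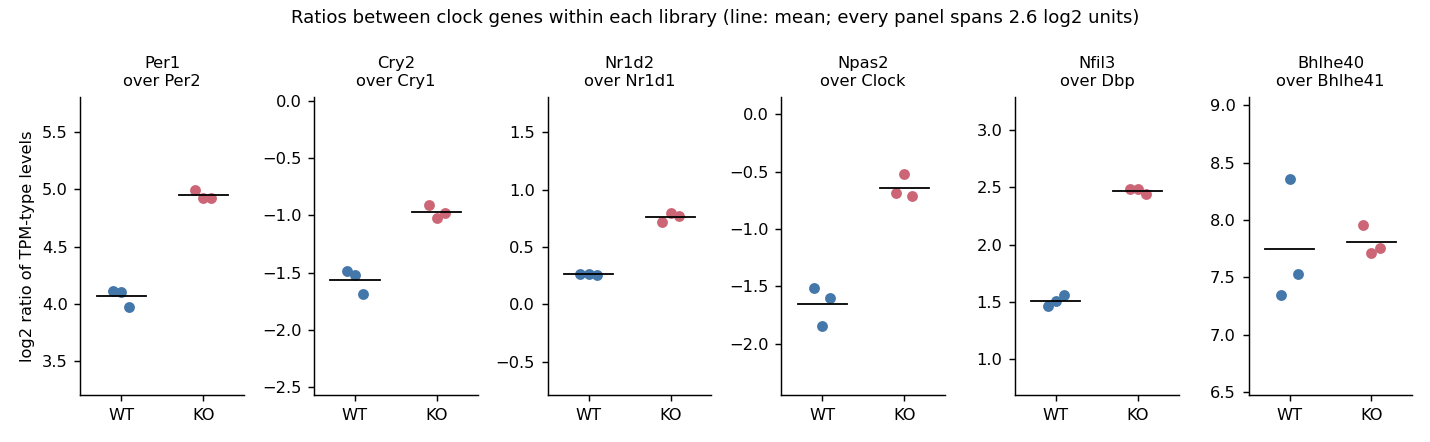
Log2 ratio of the TPM-type levels of 6 pairs of clock genes within each library, 1 point per library and a line at the mean, with the same log2 span in every panel. The groups are apart in 5 pairs and overlap for Bhlhe40 over Bhlhe41.

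A list of 18 other clock genes was read next, with edgeR's quasi-likelihood test adjusted over all 17307 genes. This list too was chosen with earlier results of these data known, so counts over it are a description of the rest of the pathway. Of the 18, 12 rose, 1 fell and 5 were not called, against the 12.0% and 12.1% of all genes given above, and their median log2 fold change was 0.19. By the study's cutoffs, 3 were higher and 1 lower, where 2.58% of all genes tested were higher and 4.37% lower. Bhlhe41, or Dec2, the paralog of Bhlhe40, rose from 1.80, 0.892 and 1.65 CPM to 2.93, 3.49 and 3.37 CPM (log2 fold change 1.20, adjusted p = 0.000476). Ciart, whose 3 E-boxes are printed above, rose from 17.8, 17.1 and 16.7 CPM to 25.0, 25.8 and 25.7 CPM (log2 fold change 0.56, adjusted p = 2.75e-06). Both encode repressors of the CLOCK dimer. Cipc, which encodes another, was at 25.5 ± 0.907 CPM in WT and 23.3 ± 1.14 in KO (SD, n = 3) and was not called (log2 fold change -0.14, adjusted p = 0.084).

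The bZIP factors that bind D-boxes moved in different directions. Nfil3 rose from 58.8, 58.8 and 60.9 CPM to 105, 109 and 108 CPM (log2 fold change 0.85, adjusted p = 2.75e-09). Hlf, an activator of the same family as Dbp, fell from 5.30, 6.19 and 6.41 CPM to 2.74, 3.39 and 3.98 CPM (log2 fold change -0.81, adjusted p = 0.000391). Tef, the remaining member of that family, rose slightly, by a log2 fold change of 0.16 (adjusted p = 0.0188). Rora, for a receptor that competes with the REV-ERB proteins, rose by a log2 fold change of 0.18 (adjusted p = 0.0145), while its paralog Rorb was at 0.0871 ± 0.0295 CPM in WT and listed at 0 in KO replicates 1 and 3, without a call (adjusted p = 0.35).

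Genes for the kinases and ubiquitin ligases that set the stability of PER and CRY proteins were slightly higher in KO, with the exception of Fbxl21. The casein kinase genes Csnk1e and Csnk1d rose by log2 fold changes of 0.35 (adjusted p = 0.000237) and 0.15 (adjusted p = 0.0283). Gsk3b rose by 0.19 (adjusted p = 0.00113). Fbxl21, for a ligase subunit that binds CRY proteins, was at 0.468 ± 0.0949 CPM in WT and 0.422 ± 0.103 in KO (SD, n = 3) without a call (adjusted p = 0.727). Btrc and Fbxw11, which encode the beta-TrCP ligases of PER proteins, rose by 0.25 (adjusted p = 0.00192) and 0.19 (adjusted p = 0.00241). Timeless, named for its fly counterpart, rose by 0.14 (adjusted p = 0.0284). Some of these calls were lost when a library was left out, which also leaves fewer libraries in the fit. The call of Rora was lost without KO replicate 3 (adjusted p = 0.0833) and that of Tef without KO replicate 2 (0.0523) or 3 (0.0996). Csnk1d was called in only 1 of the 6 fits that left out a library, the one without WT replicate 1, and Timeless in only 2, those without WT replicate 1 or 2.

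**Figure D4:**
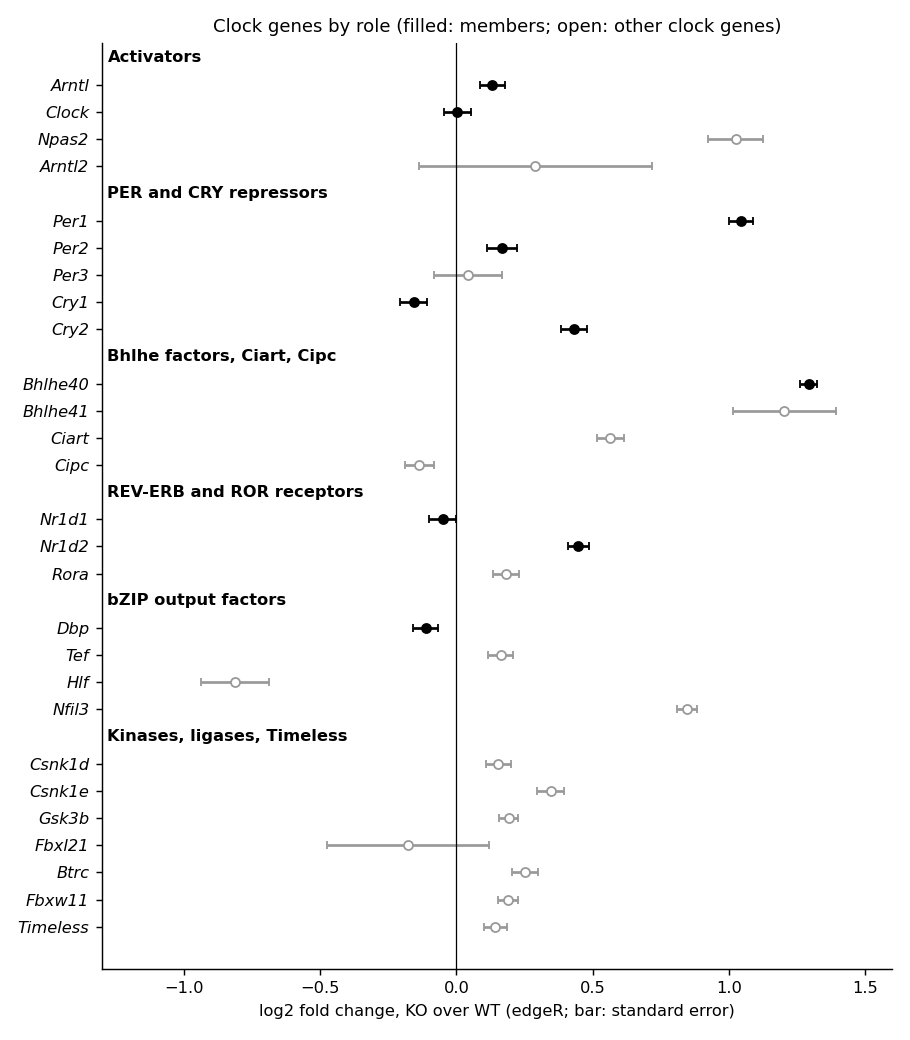
Log2 fold change, KO over WT, of the 10 genes (filled points) and the other clock genes (open points) grouped by role, with bars for the standard error of the edgeR fit. Bhlhe40, Bhlhe41, Per1 and Npas2 lie above 1, Hlf is the lowest, and Rorb, listed at 0 in KO replicates 1 and 3, is not drawn.

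Genes known to be driven by the clock or by its D-box and E-box factors in other tissues were read in the same fit. Of 7 such genes, 4 rose, 1 fell and 2 were not called, with a median log2 fold change of 0.15. Over all genes tested, 12.0% were called higher and 12.1% lower. Usp2, which encodes a deubiquitinase, rose from 2.75 ± 0.416 to 5.62 ± 0.481 CPM (SD, n = 3, log2 fold change 1.03, edgeR adjusted p = 3.38e-05). The transcription factor genes Klf10 and Klf9 rose by 0.58 (edgeR adjusted p = 1.02e-06) and 0.45 (0.000198), and Nampt, for the rate-limiting enzyme of NAD salvage, by 0.15 (0.0185). Por, the reductase of cytochrome P450 enzymes, fell by 0.15 on the log2 scale (0.00944). The call of Nampt was lost without WT replicate 2 (edgeR adjusted p = 0.0635), KO replicate 1 (0.0656) or KO replicate 3 (0.0849), and that of Por without KO replicate 3 (0.0615).

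Cytokine genes tied to Bhlhe40 in T cells were read beside it. Il10, which BHLHE40 is known to repress in helper T cells, was at 18.9, 20.4 and 20.3 CPM in WT and at 37.3, 36.7 and 39.1 CPM in KO, and thus rose (log2 fold change 0.93, edgeR adjusted p = 3e-08) in the same libraries in which Bhlhe40 was high. Ifng rose from 8.94 ± 0.918 to 14.6 ± 1.12 CPM (SD, n = 3, log2 fold change 0.70, edgeR adjusted p = 4.45e-05). Csf2 was at 0.386 ± 0.181 and 0.298 ± 0.0434 CPM (SD, n = 3) and was not called (edgeR adjusted p = 0.611). Il2ra, the gene for CD25 on which the cells were sorted, fell by 0.15 on the log2 scale (edgeR adjusted p = 0.00658, and 0.0523 without KO replicate 2).

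The genes whose levels over the 6 libraries were most like that of Bhlhe40 were Tnfaip3, Tsc22d3, Klf4, Rgs2 and Nfil3. Pearson's r of log2 CPM with Bhlhe40 was between 0.9994 and 0.9999 for these 5, out of 11077 genes whose mean log2 CPM was 1 or higher. With 3 libraries in each of 2 separate groups, r reflects mostly that each gene was higher in KO with little spread, and it is given as a description only. Tnfaip3, which encodes the NF-κB inhibitor A20, was at 2067, 2083 and 2139 CPM in WT and 3711, 3697 and 3732 CPM in KO. Tsc22d3, the glucocorticoid-induced leucine zipper gene, was at 225, 225 and 226 CPM in WT and 271, 273 and 273 CPM in KO. Klf4 was at 91.2 ± 1.23 and 153 ± 0.341 CPM, and Rgs2, a regulator of G protein signaling, at 158 ± 4.0 and 267 ± 2.42 CPM (SD, n = 3 in each group).

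Per1 and Bhlhe40 are also known to respond to signals outside the clock, Per1 to glucocorticoids and cAMP and Bhlhe40 to T cell activation and low oxygen, so lists for these responses were read. These lists were chosen with earlier results of these data known, and over all genes tested 12.0% were called higher and 12.1% lower. Of 14 glucocorticoid response genes, 7 rose, 2 fell and 5 were not called, with a median log2 fold change of 0.18. The largest rises were those of Errfi1 at 0.84 (edgeR adjusted p = 1.24e-07), Cxcr4 at 0.58 (1.97e-07), Nfkbia at 0.41 (2.74e-05), Fkbp5 at 0.40 (5.38e-06) and Sgk1 at 0.35 (0.0003). Cebpd, at -0.65 (0.011, and 0.0585 without KO replicate 2), and Ddit4, at -0.37 (0.000118), fell. Of 17 immediate early genes, 11 rose, 2 fell and 4 were not called, with a median of 0.24. Here Nr4a2 at 0.98 (edgeR adjusted p = 2.77e-08), Nr4a3 at 0.89 (8.51e-10), Nr4a1 at 0.70 (5.44e-08), Atf3 at 0.67 (8.58e-06) and Junb at 0.53 (1.01e-06) rose most, whereas Fos at -0.22 (0.000211) and Egr3 at -0.19 (0.00317) fell. Of 12 targets of hypoxia-inducible factors, 5 rose, 1 fell and 6 were not called, with a median of 0.12. Vegfa rose by 0.78 (edgeR adjusted p = 6.47e-05), Hk2 by 0.57 (1.86e-05) and Slc2a1 by 0.44 (1.79e-05). Ndrg1 rose by 0.24 (edgeR adjusted p = 0.00134) and Egln3 by 0.20 (0.0126), the call of Egln3 being lost without WT replicate 2 (0.0602) or KO replicate 3 (0.0666), and P4ha1 fell by 0.23 on the log2 scale (0.000455). Of 8 T cell and Treg markers, 2 rose, 2 fell and 4 were not called, with a median of -0.0042. Ctla4 rose by 0.65 (edgeR adjusted p = 9.56e-09) and Tnfrsf18 by 0.12 (0.0434), while Foxp3 fell by 0.11 (0.0163) and Il2ra as given above. The call of Foxp3 was lost without KO replicate 1 (edgeR adjusted p = 0.0508), 2 (0.0922) or 3 (0.0703), and that of Tnfrsf18 without WT replicate 2 (0.197) or without KO replicate 1 (0.212), 2 (0.085) or 3 (0.0553). The part of any of these responses in the levels of Per1 and Bhlhe40 was not tested.

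**Figure D5:**
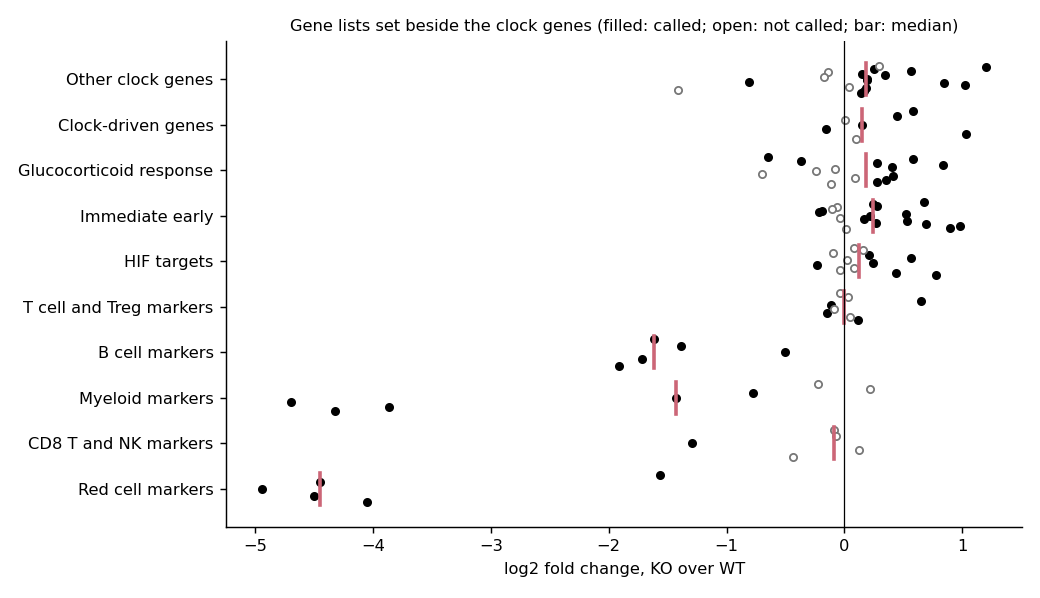
Log2 fold change, KO over WT, of each gene in lists read beside the 10 clock genes, with filled points for genes called at an adjusted p under 0.05, open points for genes not called and a bar at the median of the list. The medians of the clock, glucocorticoid, immediate early and HIF lists lie between 0.12 and 0.24, and those of the B cell, myeloid and red cell markers at -1.62, -1.43 and -4.45.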

How the data were processed

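Bulk RNA-seq of CD4+CD25+ splenic Tregs from 3 WT and 3 KO libraries was analysed, with groups and replicate numbers taken from the sample titles. The values deposited by the authors are raw, unnormalized counts by gene symbol. The submitters' processing notes name HISAT2, DESeq2 and mm10 without roles, and the counting tool, annotation and strand setting are not given in the sources used here. The table has 32285 rows, of which 40 repeat a symbol, and no column was left out. Replicates are not stated to be separate animals, so p-values measure only the spread between these libraries, which may be technical.

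Counts were scaled by TMM (factors 0.987 to 1.01) and tested by quasi-likelihood in edgeR 4.0.16 (R 4.3.3, robust fit) on 17307 genes kept by filterByExpr, with Benjamini-Hochberg adjustment and a threshold of 0.05. CPM are edgeR's, and standard errors come from the same fit. Depth was 133283969 to 209041812 counts per library. The 10 genes, the other lists and the tests were chosen with earlier results of these data known. Named were the 10 genes, Zfp335, genes overlapping them, other clock genes, at most the 5 genes higher and 5 lower with the largest change among those called in each further list (none for markers of other cells), and the 5 genes most like Bhlhe40 by Pearson's r of log2 CPM with a prior count of 2. Foxp3 and Xist describe the libraries. Xist and Csf2 fall outside that rule and were named after their values were seen. Positions and exon lengths come from GENCODE M21 of GRCm38 (31424 of 32245 symbols matched), and promoter windows from RefSeq. Alternatives were RLE scaling, library totals, no filter, DESeq2 1.42.0, limma-voom (limma 3.58.1), edgeR's legacy fit, a replicate block and leaving out each library, and the cutoffs of the study, added after the data were seen. The fit was tested on simulated data. Some other clock genes are not reported here.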

Additional observations from a re-analysis of the deposited data

How the results depend on the processing

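Over 13 alternatives no log2 fold change of the 10 genes changed direction apart from that of Clock, which lay on either side of 0 (-0.028 to 0.037). With library totals in place of TMM, which shifted the median of all genes by -0.031, the log2 fold changes of Bhlhe40, Nr1d1 and Nr1d2 were 1.26, -0.081 and 0.42, each moving by more than the spread between replicates. With each library left out in turn, Bhlhe40 was between 1.28 and 1.31, Per1 between 1.01 and 1.10, Nr1d2 between 0.43 and 0.46, Cry2 between 0.40 and 0.46, Per2 between 0.13 and 0.20, Arntl between 0.097 and 0.16, Cry1 between -0.18 and -0.11, Dbp between -0.13 and -0.089 and Nr1d1 between -0.062 and -0.029. Over those fits the genes called higher numbered 1341 to 2495 and lower 1399 to 2501, against 2082 and 2088 with all libraries, and the counts called higher without WT replicate 2 (1341) and without KO replicate 2 (1386) were more than 1.5 times smaller, with fewer libraries in the fit. By the study's cutoffs 446 genes were higher and 757 lower, and of the other clock genes 3 were higher in place of 12, since a minimum fold was added. With library totals the calls of Tef (adjusted p = 0.052), Csnk1d (0.0707), Timeless (0.079), Nampt (0.0524) and Tnfrsf18 (0.121) were lost, Cipc was called lower (0.0343, edgeR), which made 2 other clock genes lower in place of 1, and 4 immediate early genes were lower in place of 2, the cause of which was not tested. The other 13 clock genes of the 18 kept their side of the threshold in every alternative that gave an adjusted p (12 for Rorb, which had none from DESeq2, and 13 for each of the rest), as did 30 of 37 further genes run through the same alternatives. Deviations of libraries with the same replicate number correlated at 0.052, -0.0099 and -0.027, and those with unlike numbers at -0.15 to 0.15. With 3 libraries a group, these values cannot settle whether the replicate numbers pair the libraries. A fit with the replicate number as a block called 2143 genes higher and 2084 lower, and Bhlhe40 was at 1.29 in it. Depth limits genes near 0, such as Rorb, Arntl2 and Fbxl21, and without the hour of collection a difference in clock phase cannot be told apart from a difference in level.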
